A study of Homo sapiens with 6 samples.

Results

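The 28 genes described here encode proteins of the small ribosomal subunit: RPS2 to RPS29 as named below, RPSA and FAU. They were chosen by name, and all human Ensembl transcripts that GENCODE release 44 assigns to them were taken, matched without the version of the identifier. The annotation lists 279 such transcripts, of which 214 occurred in at least 1 of the 5 matrices, among 46484 human transcripts in all. At the gene level they were 28 of 12472 named human genes. The study asked how errors that PCR introduces into unique molecular identifiers (UMIs), random tags that mark each captured RNA molecule, change molecule counts. Human and mouse cells, JJN3 and 5TGMG1 by their labels (5TGM1 in the study's text) and called myeloma cell lines there, were mixed and captured in droplets, and their cDNA was read by nanopore sequencing. The 5 libraries used here carried the same cell mixture by label and no other treatment than the number of PCR cycles. The study's methods, however, give an even split of the human and mouse lines for 10X and mostly mouse cells for Drop-seq. They were Drop-seq at 25 cycles with 1000 labelled cells, Drop-seq at 30 and at 35 cycles with 500 each, and 10X Chromium at 30 and at 35 cycles with 2000 each. Per the labels the 25-cycle library was prepared for sequencing with another kit than the other 4. By the study's methods each platform's pair, read here as the 30- and 35-cycle libraries, was amplified from 1 captured library after a split, so the pair shares cells. The methods count the cycles from the split, and the numbers here are those of the labels. Each group is 1 library, so differences below have no replicate check and no test, and every interval is a 95% exact interval for counting error only.

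The small subunit binds the mRNA and monitors the pairing of codon and anticodon, while the large subunit joins the amino acids. Nearly every cell makes its proteins from abundant and mostly short mRNAs, which are therefore among the easiest to detect in single cells. Many of these mRNAs begin with a C and a run of pyrimidines, the terminal oligopyrimidine (TOP) motif, through which growth signals act on their translation.

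This start was the only sequence feature scored over the members, and most of those examined had it. The RefSeq promoter table (GRCh38.p14) held 25 of the 28 genes, without RPS2, RPS15A and RPS20. An annotated start at a C that is followed by 4 bases, each C or T, read on the strand of the gene only, was found for 19 of these 25 genes (76%). Among the 27305 genes held there, 5.14% had one. RPS4X, RPS7, RPS15, RPS26, RPS28 and RPS29 lacked it at the annotated start. In a window of 25 bases around the start the same letters occurred in 23 of the 25 genes (92%) and in 38.4% of all genes. The windows below belong to the member with the most counts in Drop-seq (RPS19), those with the most in 10X (RPS3 and RPS14) and the one that went the other way between platforms (RPS10), with RPS15 for contrast. Each begins 5 bases before the annotated start, and capitals mark the unbroken pyrimidine run from the start on.
RPS19 (chr19:41860250-41860269, plus strand): tcgttCCCTTTCCCCTggct
RPS14 (chr5:150449725-150449744, minus strand): ccactCTCTCTTTCCggtgt
RPS3 (chr11:75399513-75399532, plus strand): cacttCCTTTCCTTTCagcg
RPS10 (chr6:34426055-34426074, minus strand): tccttCCTTTCCagccccgg
RPS15 (chr19:1438391-1438410, plus strand): cggacCaaagcgatctcttc
The run held 11 bases in RPS19 and in RPS3, 10 in RPS14 and 7 in RPS10, and in RPS15 it ended after 1 base. RPS15 is nevertheless among the 23 genes with these letters in the window of 25 bases, and they lie downstream of its annotated start in the line above. RPS10 and RPS19 both have the motif, and in the platform comparison below RPS10 was higher and RPS19 lower in 10X. Any link between the motif and the platform difference was not tested. The main isoforms of the 28 genes, by the MANE set, were 295 to 3252 bases long with a median of 722.5, and the genes lay on 16 chromosomes.

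The barcodes were ranked by their counts and the labelled number of cells was taken from the top, and a human cell had at least 90% of its counts on human transcripts. This gave 251, 166 and 165 human cells in Drop-seq at 25, 30 and 35 cycles, against 1006 and 911 in 10X at 30 and 35 cycles. They held 115245, 67144 and 93499 human counts in Drop-seq and 161961 and 199308 in 10X, and the median human cell held between 117 counts (10X, 30 cycles) and 344 (Drop-seq, 35 cycles). The smallest stored value was 1 in Drop-seq at 25 cycles, 3 in Drop-seq at more cycles and 2 in 10X, so a low entry can be missing rather than 0. The labelled human line was checked against marker genes. In 10X, 11 of 15 plasma cell genes were listed, with 10841 and 20821 counts at 30 and 35 cycles, and of 15 T cell genes LAT alone, with 2 counts in each library. Drop-seq went against its label: plasma cell genes had 15, 10 and 16 counts with SDC1, IRF4, JCHAIN and IGLL5 at 0, while 12, 6 and 8 of the 15 T cell genes had 355, 239 and 310 counts. The study's single-cell methods name JJN3 for both platforms, while its cell culture section and the legend of its 10X experiment, where plasma cell genes were listed here, name Jurkat, a T cell line. The cells are therefore called human cells here, and platform and the human cells captured cannot be told apart.

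Small-subunit genes held about 10% of the human counts in Drop-seq and little over 1% in 10X. In Drop-seq the share was 10.2% at 25 cycles (11738 counts, 10.0 to 10.4%), 10.1% at 30 cycles (6786 counts, 9.88 to 10.3%) and 9.77% at 35 cycles (9139 counts, 9.58 to 9.97%). In 10X it was 1.30% at 30 cycles (2113 counts, 1.25 to 1.36%) and 1.28% at 35 cycles (2552 counts, 1.23 to 1.33%). The platforms lay far apart, while the intervals at 30 and 35 cycles overlapped within each platform. Drop-seq was 7.75 times as high at 30 cycles and 7.63 times at 35 cycles. When entries below 3 counts were dropped throughout, the ratios were 18.2 and 18.6, and the 10X shares were 0.556% and 0.525%. How far the values that the files do not store change the main ratio was not tested beyond this.

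As sums of counts, the other gene lists of translation differed less between platforms than the small-subunit genes, while gene by gene the medians of the subunits lay close, as given with the log2 ratios. The 53 large-subunit protein genes held 14.5% and 14.3% in Drop-seq at 30 and 35 cycles, against 4.67% and 5.24% in 10X, ratios of 3.10 and 2.73. A list of 21 translation factors and related genes, with the elongation factor EEF1A1 and the ribosome-bound RACK1 among them, held 2.90% and 2.98% in Drop-seq, against 2.60% and 3.32% in 10X. The 12 assembly factors that help build the small subunit, such as NOB1 and BYSL, had 38 to 72 counts per library. Mitochondrial transcripts moved with platform too, at 2.48% to 2.58% of human counts in Drop-seq and 10.7% and 13.2% in 10X. Without mitochondrial and immunoglobulin transcripts in the total, the small-subunit ratio was 6.86 at 30 cycles and 6.39 at 35 cycles. The immunoglobulin transcripts removed were those of genes whose annotated type is immunoglobulin. IGLL5, with 7467 and 15219 counts in 10X at 30 and 35 cycles, was not among them and stayed in the total.

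**Figure D1:**
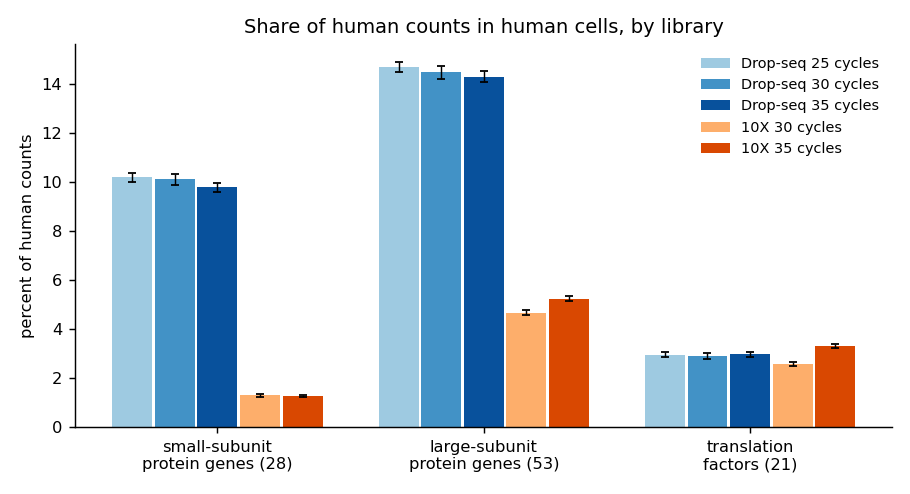
Percent of human counts in human cells (vertical axis) on the gene lists of translation in each of the 5 libraries, with 95% exact intervals of counting error. Small-subunit genes lie near 10% in the 3 Drop-seq libraries and at 1.28% to 1.30% in 10X, and translation factors lie between 2.60% and 3.32% in all 5.

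Mouse cells gave the level of free human RNA and of reads set to the wrong species. A member transcript was listed in 165 of 590 mouse cells in Drop-seq at 25 cycles (28%), in 7 of 291 at 30 cycles (2.41%) and in 13 of 309 at 35 cycles (4.21%). None of the 804 and 880 mouse cells of 10X listed one. Among human cells the shares were 91.6%, 80.7% and 85.5% in Drop-seq, against 25.4% and 33.5% in 10X. Median depths of human and mouse cells were close, at 256 and 282.5 counts in Drop-seq at 25 cycles, 237.5 and 278 at 30 cycles, 344 and 417 at 35 cycles, and equal at 117 and at 171 in 10X. Human and mouse cells were chosen by their share of human counts, so a higher member level in human cells followed from this choice. Barcodes with more human RNA were left out of the mouse cells, so the background level was not measured independently.

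RPS19, a protein of the head of the subunit whose gene is often mutated in Diamond-Blackfan anaemia, had the most counts of all members in each Drop-seq library. It had 1234, 698 and 944 counts in Drop-seq at 25, 30 and 35 cycles, against 50 and 60 in 10X at 30 and 35 cycles. Among all human genes it ranked 1, 3 and 2 in Drop-seq, against 420 and 346 in 10X. A count here is a UMI of a transcript and not a fragment, so levels were not divided by length, and counts of isoforms were summed. With only the highest isoform of each gene and cell taken, RPS19 still led the members in the 3 Drop-seq libraries, at ranks 6, 8 and 6 among all human genes.

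RPS14 and RPS3 were high on both platforms. RPS14, which sits on the platform of the subunit and is lost in a form of myelodysplastic syndrome, had 1229, 671 and 768 counts in Drop-seq and 327 and 341 in 10X. RPS3, which lines the entry of the mRNA channel and also acts in DNA repair, had 877, 464 and 484 counts in Drop-seq and 362 and 693 in 10X. RPS14 ranked 2, 5 and 10 among all human genes in Drop-seq and 57 and 60 in 10X, and RPS3 ranked 10, 15 and 19 and then 53 and 35. With isoforms summed, RPS3 and RPS14 were the members with the most counts in both 10X libraries. With only the highest isoform of each gene and cell taken, RPS4X ranked 2 and RPS14 ranked 3 among the members in 10X at 35 cycles. RPS15, whose tail reaches the decoding site, had 1065, 609 and 887 counts in Drop-seq and 76 and 72 in 10X. With isoforms summed it was among the top 3 members only in Drop-seq. By the highest isoform RPS15 ranked 5, 4 and 4 among the members in Drop-seq at 25, 30 and 35 cycles. RPS18 moved up from 18, 15 and 16 to 8, 3 and 3.

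RPS10 went the other way. RPS10, another protein of the head, had 29, 0 and 5 counts in Drop-seq and 166 and 157 in 10X, so it was the lowest member in every Drop-seq library and the member ranked 3 and 4 in 10X. Its Drop-seq counts came from 2 cells at 25 cycles and 1 cell at 35 cycles, and its 10X counts from 21 and 28 cells. At the other end, RPS27 had 389, 204 and 402 counts in Drop-seq and RPS9 had 100, 45 and 64, and neither was listed in the human cells of 10X. RPS29, the shortest of the MANE isoforms and a zinc-binding protein, had 155, 48 and 136 counts in Drop-seq, none listed in 10X at 30 cycles and 25 in 10X at 35 cycles. RPS27, RPS9 and RPS29 were thus low or not listed in 10X, and RPS10 was low or not listed in Drop-seq.

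The remaining members were higher in Drop-seq than in 10X per 10,000 human counts. RPS3A had 923, 540 and 642 counts in Drop-seq and 82 and 102 in 10X, and RPS15A had 987, 508 and 772 and then 123 and 50, so both had more counts than RPS3 in Drop-seq and fewer in 10X. RPS23, a protein of the decoding centre, had 391, 328 and 438 counts in Drop-seq and 64 and 71 in 10X. RPS2, at the entry of the mRNA channel, had 290, 157 and 264 counts in Drop-seq and 38 and 76 in 10X. RPS26, at the exit of that channel and another gene mutated in Diamond-Blackfan anaemia, had 210, 147 and 172 counts in Drop-seq and 40 and 43 in 10X. RPS12, RPS13, RPS16, RPS18, RPS20, RPS21 and RPS28 had 92 to 409 counts at 25 cycles, 49 to 295 at 30 cycles and 69 to 370 at 35 cycles of Drop-seq. In 10X they had 6 to 68 counts at 30 cycles and 2 to 60 at 35 cycles, so several rest on a handful of cells there.

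RPS6, the phosphorylated protein used as a readout of growth signalling, had 65.7, 56.9 and 64.0 per 10,000 in Drop-seq, against 4.32 and 7.63 in 10X. RPS4X, encoded on the X chromosome, had 12.8, 17.3 and 16.3 per 10,000 in Drop-seq, against 6.17 and 6.77 in 10X, the smallest step between platforms at 30 cycles. RPSA, also known as a laminin receptor, had 11.4, 18.9 and 19.3 per 10,000 in Drop-seq, against 4.82 and 4.42 in 10X. The genes that encode a ribosomal protein fused to a ubiquitin or ubiquitin-like protein were mid to low, with RPS27A at 19.1, 9.53 and 12.5 per 10,000 in Drop-seq, against 2.72 and 0.502 in 10X. FAU, the other such gene, had 9.81, 8.49 and 5.99 per 10,000 in Drop-seq, against 2.59 and 3.61 in 10X. Of the 57 and 56 FAU counts in Drop-seq at 30 and 35 cycles, 1 cell gave 68.4% and 57.1%, so these levels rest on single cells.

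The order of the 28 genes was close within Drop-seq and looser elsewhere. Spearman's rho of the counts over the 28 genes, as a description, was 0.96 between 25 and 30 cycles, 0.97 between 30 and 35 cycles and 0.95 between 25 and 35 cycles in Drop-seq. Between 30 and 35 cycles of 10X it was 0.82. Across platforms it was 0.52 at 30 cycles and 0.36 at 35 cycles. The 30- and 35-cycle libraries of a platform share captured cells, and 10X had fewer member counts. The 25-cycle library also shared 135 and 133 human barcodes with Drop-seq at 30 and 35 cycles. Its rho values therefore cannot be read as likeness between separate sets of cells.

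**Figure D2:**
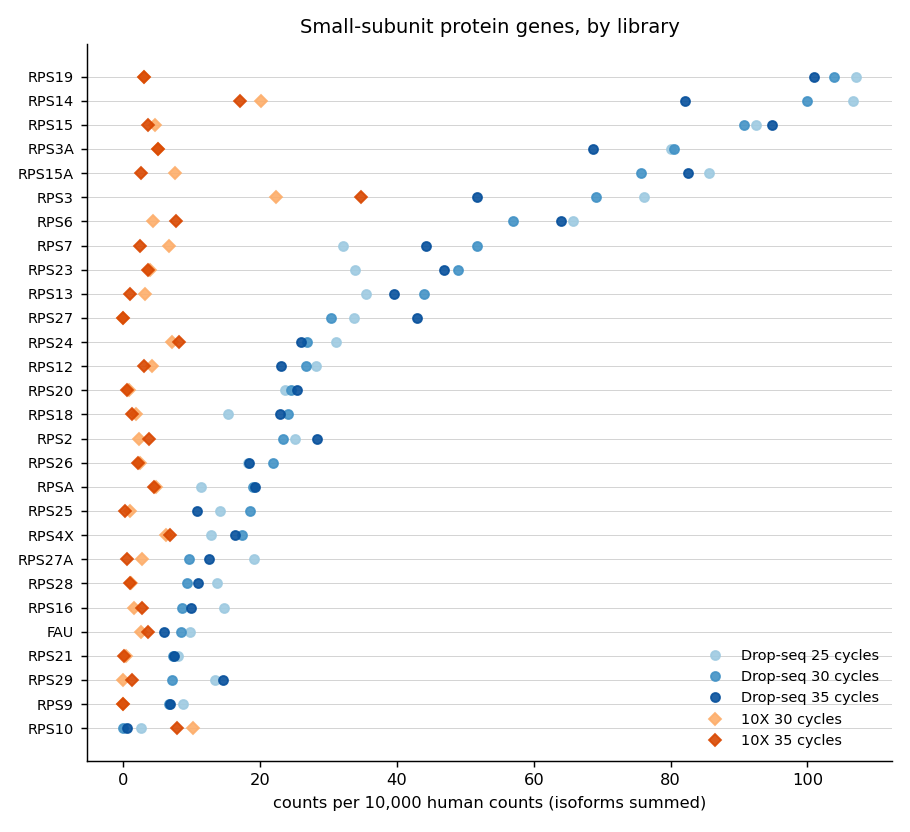
Counts per 10,000 human counts (horizontal axis, linear, isoforms summed) of each of the 28 genes in human cells of the 5 libraries, 1 point per gene and library, in the order of Drop-seq at 30 cycles. The 10X points lie below the Drop-seq points for all genes except RPS10, and those of RPS27 and RPS9 lie at 0, where no count is listed.

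Gene by gene, 10X was compared with Drop-seq as a log2 ratio of counts per human count, for genes with at least 100 counts over both libraries, and a gene was called at a 2-fold difference, which is a rule of size. At 30 cycles 22 members were compared, of which 21 were lower in 10X and 1, RPS10, was higher. Over all 309 genes compared, 35% were lower and 47.6% higher. At 35 cycles 26 members were compared, of which 23 were lower and 1 (RPS10) higher, against 44.1% lower and 38.5% higher among all 392 genes. RPS3 at -0.57 (-0.74 to -0.40) and FAU at -0.73 (-1.25 to -0.20) were the members not called at 35 cycles. The median log2 ratio of the members was -3.31 at 30 cycles and -3.41 at 35 cycles, beside -0.39 and -1.07 over all genes. These medians cover genes with counts in both libraries, 20 and 25 of the members and 241 and 309 of all genes. Of all genes compared, 63 and 66 had no counts listed in Drop-seq and 5 and 17 none in 10X. Ranked as the highest and the lowest, they bring the medians to 0.73 and -0.35 over all genes and to -3.31 and -3.46 over the members. RPS19 stood at -5.06 (-5.52 to -4.66) at 30 cycles and -5.06 (-5.47 to -4.69) at 35 cycles, and RPS14 at -2.31 (-2.50 to -2.11) and -2.26 (-2.45 to -2.08). Large-subunit genes were also mostly lower in 10X, 30 of 40 at 30 cycles and 35 of 43 at 35 cycles, with 2 higher at each, and their medians of -2.96 and -3.21, over genes with counts in both libraries, were near those of the members. Of the translation factors 7 of 10 were lower at 30 cycles and 8 of 11 at 35 cycles, with 0 and 2 higher and medians of -2.31 and -1.86.

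Transcript length differed between platforms outside the members as well. Transcripts of at least 500 and under 750 bases that belong to no member held 11.8% of human counts in Drop-seq and 8.12% in 10X at 30 cycles. Those under 500 bases held 2.45% and 5.98%, and those of 5000 bases or more held 7.88% and 21.9%. At 35 cycles those of 500 to 750 bases held 11.7% in Drop-seq and 8.36% in 10X. Those under 500 bases then held 2.64% and 8.35%, and those of 5000 bases or more 8.18% and 15.6%. The length classes of 10X thus differed between cycle numbers as well. Among the members, the length of the MANE isoform and the platform log2 ratio at 30 cycles had a Spearman's rho of 0.28 over 24 genes, given as a description. The part of length in the platform difference was not tested.

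The libraries at 30 and 35 cycles were compared by the share of human counts that a gene or list held. Each ratio here is taken per human count, so a rise common to all genes cancels out. Member counts as such rose with the added cycles. Drop-seq went from 6786 counts (166 human cells) to 9139 (165 cells). For 10X the step was from 2113 counts (1006 cells) to 2552 (911 cells). All human counts rose as well, and the part of PCR in these rises was not tested. In Drop-seq the small-subunit genes as a sum had a log2 ratio of 35 over 30 cycles of -0.05 (-0.09 to -0.0027), and in 10X of -0.03 (-0.11 to 0.06). Large-subunit genes had -0.02 in Drop-seq and 0.17 in 10X, and translation factors 0.04 and 0.35. In Drop-seq 27 members were compared, of which 1 was at least 2-fold higher at 35 cycles and 0 lower, against 0.935% higher and 0.935% lower among all 321 genes. In 10X 16 members were compared, of which 0 were higher and 2 lower, against 10.5% higher and 20.2% lower among all 421 genes. The median log2 ratio of the members was -0.04 in Drop-seq and -0.08 in 10X, beside -0.06 and -0.19 over all genes.

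In Drop-seq the member past 2-fold was RPS29, from 48 to 136 counts and from 6 to 13 cells, a log2 ratio of 1.02 (0.54 to 1.53). RPS27 followed at 0.50 (0.25 to 0.75), from 204 to 402 counts. RPS25, a protein that many viral RNAs need for initiation without a cap, was lowest at -0.77 (-1.17 to -0.38), from 124 to 101 counts. Within barcodes that were human cells at both cycle numbers RPS25 had -0.51.

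In 10X the members past 2-fold were RPS15A at -1.59 (-2.10 to -1.11), from 123 to 50 counts, and RPS7 at -1.46 (-1.99 to -0.97), from 108 to 48 counts. They came from 18 and then 8 cells for RPS15A and from 15 and then 6 cells for RPS7. In Drop-seq the same genes had 0.13 (-0.04 to 0.29) and -0.23 (-0.44 to -0.02). RPS6 was highest in 10X at 0.81 (0.40 to 1.25), from 70 to 152 counts. RPS3 had 0.64 (0.45 to 0.82) in 10X, from 49 to 94 cells, and -0.42 (-0.60 to -0.23) in Drop-seq, from 20 to 21 cells. RPS14 had -0.24 (-0.46 to -0.02) in 10X and -0.28 (-0.43 to -0.13) in Drop-seq. With values below 3 left out RPS14 had -1.32 in 10X, past 2-fold, so its 10X value depends on the smallest values stored. In 10X 12 members had under 100 counts over the pair and were not compared.

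**Figure D3:**
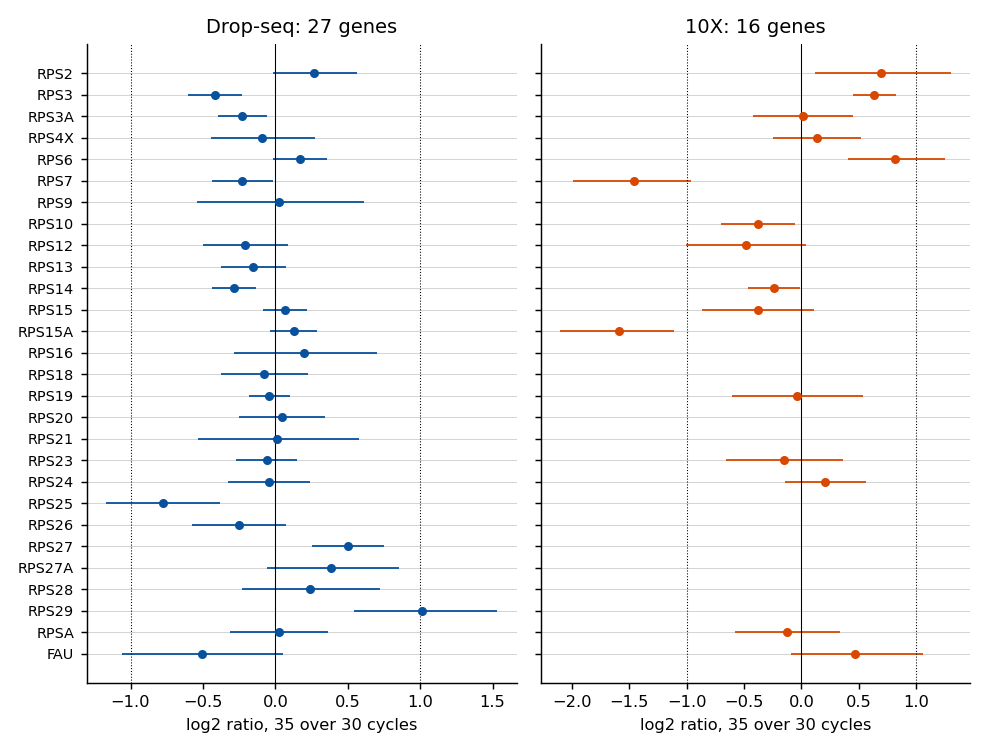
Log2 ratio of 35 over 30 cycles for each member gene with at least 100 counts over the pair, in Drop-seq and in 10X, with exact conditional intervals of counting error and lines at 2-fold. RPS29 lies past the line in Drop-seq at 1.02, RPS15A and RPS7 lie past it in 10X at -1.59 and -1.46, and RPS3 lies on opposite sides of 0 on the platforms.

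Of single transcripts, 60 members were compared in Drop-seq and 9 in 10X. None of them was called in either direction, against 0% higher and 0% lower among all 243 transcripts in Drop-seq and 7.61% higher and 20.5% lower among all 381 in 10X. The 9 in 10X were 4 of RPS14, 4 of RPS3 and RPS4X-201. They ran from -0.31 for RPS14-203 to 0.66 for RPS3-217. In Drop-seq the lowest were RPS25-202 at -0.81 (-1.38 to -0.25) and RPS25-206 at -0.73 (-1.30 to -0.18), then RPS3-206 at -0.61, RPS3-217 at -0.50 and RPS3-201 at -0.49. The highest were RPS2-213, a retained-intron transcript, at 0.53, RPS15-205 and RPS15-207 at 0.51 each, RPS2-201 at 0.47 and RPS27-205 at 0.41. The 4 RPS3 transcripts were all above 0 in 10X and those named were below 0 in Drop-seq, and transcripts of 1 gene can share reads.

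Isoforms of a gene shared counts. A gene seen in a cell had counts on at least 2 of its transcripts in 86.4%, 79.4% and 80.7% of 1038, 399 and 487 cases in Drop-seq and in 71.3% and 73.5% of 397 and 464 cases in 10X. All of these transcripts had the same count in 64.2%, 57.4% and 48.3% of such cases in Drop-seq and in 92.6% and 93.0% in 10X. For genes that are no members the figures were 72.5%, 64.8% and 62.0% in Drop-seq, against 92.1% and 88.9% in 10X. Summing isoforms gave 3.17, 2.92 and 2.95 times the count of the highest isoform in Drop-seq and 2.52 and 2.56 times in 10X, where all human genes gave 2.13, 2.04 and 2.05, and 1.47 and 1.53. Member levels are thus raised more by summing than those of all genes, and isoform shares below describe how the files divide reads.

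RPS3 (ENSG00000149273, chromosome 11, 20 annotated transcripts) had most of its counts on 4 transcripts, of which 3 were near equal in Drop-seq. RPS3-217, the MANE isoform, had 210, 118 and 116 counts in Drop-seq and 105 and 205 in 10X. The coding RPS3-201 had 207, 115 and 114 counts in Drop-seq and 93 and 178 in 10X. RPS3-216, annotated as a target of nonsense-mediated decay, had 199, 115 and 116 counts in Drop-seq and 100 and 188 in 10X. RPS3-206, another such transcript, was lower, with 156, 90 and 82 counts in Drop-seq and 54 and 104 in 10X. RPS3-217 held 23.9%, 25.4% and 24.0% of the gene in Drop-seq and 29.0% and 29.6% in 10X. RPS3-209, a coding transcript that runs on to 75422280 beyond the end of RPS3-217 at 75406907, had 62, 22 and 44 counts in Drop-seq and 2 and 6 in 10X.

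RPS25 (ENSG00000118181, chromosome 11) split nearly evenly in Drop-seq between a coding transcript and one annotated as a target of decay, and had 16 and 4 counts in 10X. RPS25-202, the MANE isoform, had 81, 63 and 50 counts in Drop-seq, 6 in 10X at 30 cycles and none listed in 10X at 35 cycles. RPS25-206 had 78, 61 and 51 counts in Drop-seq and 8 and 2 in 10X. The lines below show where their coding sequences part (GENCODE, GRCh38, minus strand): lower case marks the last 24 of 99 shared coding bases and capitals the 21 bases that follow.
RPS25-202 (chr11:119017525-119017981, spliced): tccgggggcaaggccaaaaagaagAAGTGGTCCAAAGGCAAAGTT
RPS25-206 (chr11:119017937-119017981, not spliced): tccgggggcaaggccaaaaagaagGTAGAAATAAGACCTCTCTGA
RPS25-206 reads on into the intron and ends at a stop after 120 coding bases, where RPS25-202 has 378. The near-equal counts in Drop-seq came although the annotated coding sequences differ from this point on.

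RPS24 (ENSG00000138326, chromosome 10) is known for isoforms that differ only in the last few codons. The 6 coding transcripts below share 390 coding bases, and the lines show the last 24 of them in lower case and in capitals the isoform's own bases up to and including the stop (GENCODE, GRCh38, plus strand, spliced).
RPS24-202 (chr10:78037281-78040206): gccaatgttggtgctggcaaaaagTGA
RPS24-203 (chr10:78037281-78040206): gccaatgttggtgctggcaaaaagCAGTGA
RPS24-201 (chr10:78037281-78040206): gccaatgttggtgctggcaaaaagAAGTGA
RPS24-214 (chr10:78037281-78040626): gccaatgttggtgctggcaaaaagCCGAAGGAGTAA
RPS24-216 (chr10:78037281-78037970): gccaatgttggtgctggcaaaaagAAATGA
RPS24-205 (chr10:78037281-78037970): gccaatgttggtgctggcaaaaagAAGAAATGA
RPS24-203 had 81, 42 and 48 counts in Drop-seq and 34 and 46 in 10X. RPS24-202, the MANE isoform, had 80, 40 and 53 counts in Drop-seq and 28 and 42 in 10X. RPS24-201 had 74, 24 and 42 counts in Drop-seq and 26 and 39 in 10X, so these 3 were close in Drop-seq at 25 cycles, and RPS24-201 was the lowest of them in each library. RPS24-214, with the longest ending, had 65, 42 and 54 counts in Drop-seq and 10 and 11 in 10X. It held 18.2%, 23.3% and 22.2% of the gene in Drop-seq and 8.77% (4.29 to 15.5%) and 6.79% (3.44 to 11.8%) in 10X. At 35 cycles the Drop-seq interval of 17.2 to 28% lies above that of 10X. In Drop-seq 1 of the 5 cells with RPS24 gave 63.3% of its counts at 30 cycles, and 1 of 9 gave 28.4% at 35 cycles. The 10X counts came from 21 and 24 cells. The intervals do not allow for such few cells. RPS24-216 and RPS24-205 were low, with 15 counts each in Drop-seq at 25 cycles, and with 8 and 16 and with 4 and 6 counts in 10X.

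Other genes divided their counts in other ways. RPS4X had nearly all of its counts on 1 transcript, RPS4X-201, with 146, 116 and 152 counts in Drop-seq and 100 and 135 in 10X. RPS14 had them on 4 transcripts that were near equal in Drop-seq, from 300 to 311 at 25 cycles. In 10X the 4 parted: RPS14-203 and RPS14-202, of 2146 and 2314 bases, had 107 and 98 counts at 30 cycles, and RPS14-201 and RPS14-207, of 712 and 592 bases, had 61 each. At 35 cycles the same pairs had 106 and 104, and 64 and 67 counts. RPS29-201 and RPS29-205 had the same counts in every library, 65, 24 and 62 in Drop-seq and 5 in 10X at 35 cycles. In that 10X library RPS29-202, of 7062 bases, had 13 of the 25 RPS29 counts, and in Drop-seq it had 1 count in all 3 libraries together. Over all members, the leading transcript of each gene held 31.3%, 32.8% and 32.5% of member counts in Drop-seq and 36.9% and 36.6% in 10X.

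**Figure D4:**
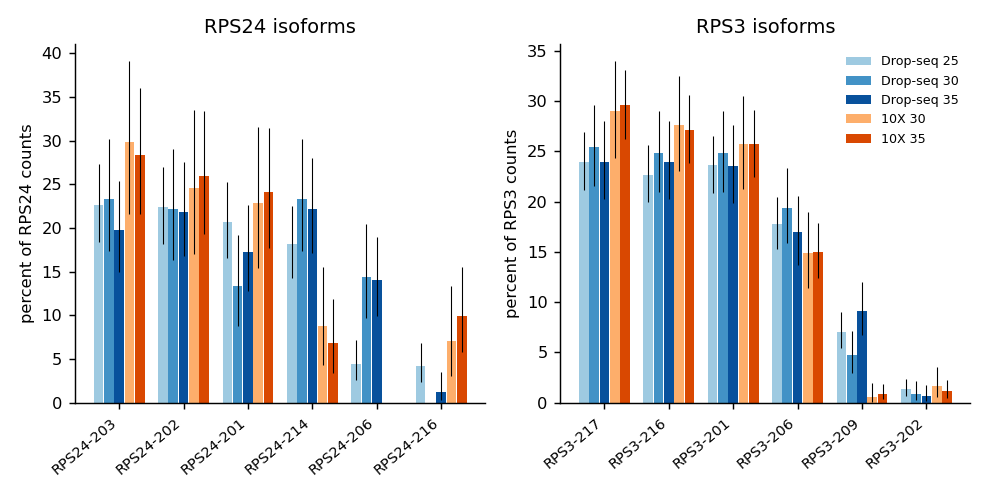
Percent of the counts of RPS24 (left) and RPS3 (right) on the 6 leading transcripts of each, in human cells of the 5 libraries, with 95% exact intervals of counting error. RPS24-214 holds 18.2% to 23.3% of RPS24 in Drop-seq and 6.79% to 8.77% in 10X, and RPS3-217 holds 23.9% to 29.6% of RPS3 in the 5 libraries.

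By annotated type, coding transcripts held 82.1%, 82.1% and 81.6% of member counts in Drop-seq and 81.9% in each 10X library. Transcripts annotated as targets of nonsense-mediated decay held 9.83%, 9.56% and 9.32% in Drop-seq, against 11.4% and 12.9% in 10X. Retained-intron transcripts held 6.59%, 6.44% and 7.33% in Drop-seq, against 5.68% and 4.94% in 10X. Pseudogenes of the members, which are near copies that can take reads from them, had 34, 9 and 23 counts in Drop-seq and 47 and 45 in 10X. Per 100 member counts this was 0.290, 0.133 and 0.252 in Drop-seq, against 2.22 and 1.76 in 10X. Of all human counts pseudogenes held 0.0295%, 0.0134% and 0.0246% in Drop-seq, against 0.0290% and 0.0226% in 10X, so the level per member count differs with the member counts. Reads set to the wrong copy were not tested.

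The share of a human cell's human counts on members varied widely among cells. Its median was 9.24%, 7.93% and 8.19% in Drop-seq at 25, 30 and 35 cycles, against 0% in both 10X libraries. The quartiles were 3.66% and 14.3%, 2.39% and 14.2%, and 3.91% and 12.5% in Drop-seq, and in 10X the upper quartile was 0.576% at 30 cycles and 1.62% at 35 cycles. The highest cell had 50.4%, 37.8% and 37.5% in Drop-seq, against 16.3% and 14.4% in 10X. Cells with no member listed were 21, 32 and 24 in Drop-seq (8.37%, 19.3% and 14.5%) and 750 and 606 in 10X (74.6% and 66.5%). Their median counts were 169, 149 and 232 in Drop-seq, with 286.5, 275.5 and 377 in cells that list a member. In 10X they were 109 and 155.5, with 184 and 216 in cells that list one, so cells without a member were the shallower ones in all 5 libraries.

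Cells were therefore also compared at 1 depth. Thinned to 100 counts each, with 352 shallower cells of 10X at 30 cycles left out and none elsewhere, the median share was 9%, 8% and 8% in Drop-seq and 0% in both 10X libraries. Cells with no member were then 10.8%, 19.9% and 15.2% in Drop-seq, against 70.5% and 70.6% in 10X. Among cells with at least 200 counts the median was 9.50%, 9.44% and 8.21% in Drop-seq, against 0.784% and 0.792% in 10X. The platforms stayed apart at equal depth, and the 10X difference between cycle numbers in cells with no member went from 74.6% against 66.5% to 70.5% against 70.6%. In Drop-seq at 25 cycles the median was 3.32% with values below 3 left out.

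Barcodes that were human cells in 2 libraries allowed the share to be followed cell by cell. Drop-seq at 30 and 35 cycles shared 145 such barcodes, and the share had a Pearson's r of 0.85 and a Spearman's rho of 0.87 over them, given as a description. The 25-cycle library shared 135 of the 166 human barcodes at 30 cycles and 133 of the 165 at 35 cycles. Over these, r was 0.76 and 0.84 and rho 0.81 and 0.84. In 10X, 722 barcodes were shared with an r of 0.19 and a rho of 0.21, and 350 of them had no member listed in either library. Drop-seq and 10X shared no human barcode. Stored barcodes have 10 bases, so different cells could share one, and the 30- and 35-cycle libraries also share captured molecules.

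**Figure D5:**
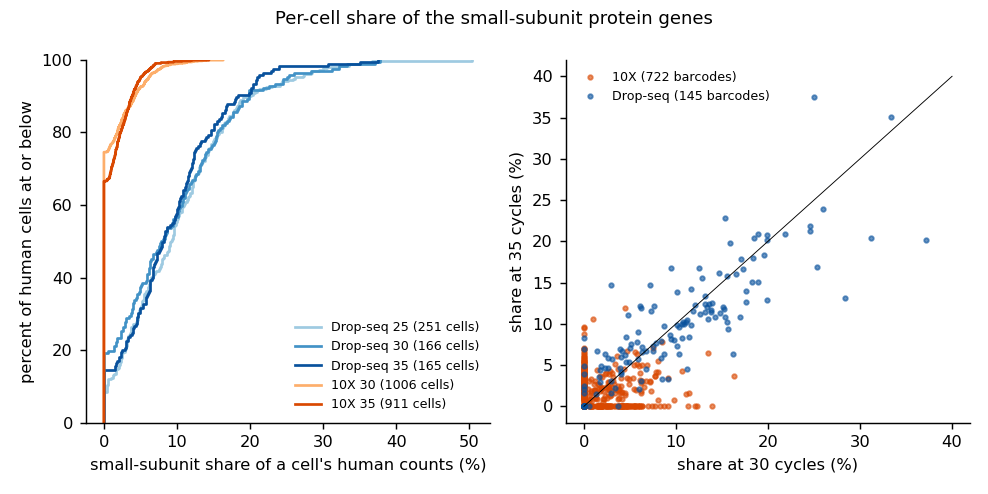
Left, percent of human cells (vertical axis) at or below a given percent of counts on small-subunit genes (horizontal axis), 1 line per library, and right, that percent at 30 against 35 cycles for barcodes that were human cells in both, with a line of equality. The medians are 9.24%, 7.93% and 8.19% in Drop-seq and 0% in 10X, where 74.6% and 66.5% of cells list no member. The right panel holds 145 Drop-seq barcodes and 722 of 10X, of which 350 lie at 0 in both libraries.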

How the data were processed

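UMI counts per barcode and Ensembl transcript were used as the authors deposited them, without normalization. By the study's methods, Guppy called the bases, barcodes were located by the polyA tail and flanking sequence and UMIs beside it or, in Drop-seq, by a primer sequence, minimap2 mapped the reads to human and mouse transcripts, and 10X UMIs were counted with UMI-tools (directional). The submitters' processing notes name hg38. Whether the Drop-seq files hold monomer or homotrimer counts, and which filters removed low values, is not given in the sources used here. A sample with read numbers only was not used.

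Transcripts were named by GENCODE release 44, and 42740 of 46484 human transcripts matched. Those that did not match held 6.48% (10X, 35 cycles) to 7.91% (Drop-seq, 35 cycles) of human counts. They stayed in the totals and could not be assigned to a member. Human cells had at least 90% human counts. No doublet caller was run: mixed barcodes were dropped by purity and doublets of 1 species remain. Counts were summed over human cells. Depth was 67144 to 199308 human counts per library. Shares have exact Clopper-Pearson intervals, ratios exact conditional binomial intervals (95%), with a pseudocount of 0.5 counts, a minimum of 100 counts over both libraries and a call at 2-fold. Intervals cover counting error only: PCR copies, isoforms that share reads and the few cells behind a gene make the true spread wider.

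All 28 members were named at gene level. Transcripts were named as the leading ones, those of RPS25 and RPS3 with at least 100 counts over a pair, and the 5 highest and lowest ratios of each pair. The RPS24, RPS14, RPS29, RPS4X and RPS10 details were chosen after their values were seen. Members and lists were chosen with earlier results of these data known. Alternatives changed purity, cells, depth, smallest value, isoform handling, denominator, scaling and minimum. Those with values below 3 removed and then thinned, without immunoglobulin transcripts, or within barcodes human at both cycle numbers for the share, were added after seeing the data. Scripts were tested on simulated data. The versions were scipy 1.17.1, numpy 2.4.6, matplotlib 3.10.9 and pandas 2.3.3 under Python 3.11.15.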

Additional observations from a re-analysis of the deposited data

Results flagged for a closer look

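Relative to all human counts, RPS3 moved in opposite directions with PCR cycles on the platforms. Its log2 ratio of 35 over 30 cycles was 0.64 (0.45 to 0.82) in 10X and -0.42 (-0.60 to -0.23) in Drop-seq. Each value is 1 library against 1, and the difference between the platforms was not tested. The 10X value stayed between 0.48 and 0.82 and the Drop-seq value between -0.42 and -0.31 under the alternatives run for it. RPS3 was listed in 49 and then 94 human cells in 10X and in 20 and then 21 in Drop-seq.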

How the results depend on the processing

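The platform order of the member share held under every alternative run, while its level moved. All barcodes in place of cells gave 8.45%, 8.32% and 8.38% in Drop-seq at 25, 30 and 35 cycles, against 1.15% and 0.990% in 10X at 30 and 35 cycles. The highest isoform per gene and cell gave 6.86%, 7.07% and 6.79%, and 0.760% and 0.765%. Without mitochondrial transcripts the shares were 10.5%, 10.4% and 10.0%, and 1.46% and 1.48%, and without immunoglobulin transcripts as well 10.5%, 10.4% and 10.0%, and 1.51% and 1.57%. IGLL5 stayed in these totals. With the number of cells halved they were 10.4% and 10.1% in Drop-seq at 30 and 35 cycles, against 1.48% and 1.45% in 10X. A purity of 95% gave 10.6% and 9.99% at 25 and 35 cycles of Drop-seq. Values below 3 left out gave 10.7% at 25 cycles, and 0.556% and 0.525% in 10X. Barcodes human at both cycle numbers gave 1.45% and 1.35% in 10X. Another 13 such values stayed within their interval.

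The per-cell median of Drop-seq at 25 cycles was 3.32% with values below 3 left out and 5% when cells were then thinned, and in 10X it was 0.784% and 0.792% in cells with at least 200 counts. Member transcripts past 2-fold in 10X became 1 lower at a minimum of 50 counts and 1 higher over all barcodes. Median-of-ratios scaling gave pooled log2 ratios of 0.16 in 10X and 0.011 in Drop-seq, after shifts of -0.19 and -0.06, so the sign of these sums depends on scaling. The rank correlation of 10X at 30 and 35 cycles was 0.36 with values below 3 left out, and that of Drop-seq with 10X at 30 cycles was 0.29 then and 0.40 with the highest isoform. The leading transcripts of Drop-seq at 25 cycles held 33.2% over all barcodes and 32.9% with values below 3 left out. In 10X, 14 of 16 member genes fell below the minimum count with values below 3 left out, and 12 of 16 with the highest isoform. Apart from what the alternatives themselves remove, the cause of these moves was not tested. No paired test over libraries was possible because each group held 1 library. In 10X, 12 of the 28 genes had under 100 counts over both libraries and were not compared.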
